A study of Mus musculus with 8 samples.

Results

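A set of 10 genes of bone morphogenetic protein (BMP) signalling were examined in mouse embryonic stem cells: the ligand gene Bmp4, the receptor genes Bmpr1a and Bmpr2, the receptor-activated Smad genes Smad1 and Smad5, the inhibitory Smad genes Smad6 and Smad7, and the target genes Id1, Id2 and Id3. They were picked by gene name from the 49641 entries of the deposited expression table. All 10 had 1 entry each and passed the filter of a mean of at least 1 FPKM (fragments per kilobase of transcript length, scaled to the number of fragments mapped), as did 12786 entries in all. The 8 libraries form 4 groups of 2: Dgcr8 KO cells given a miR-294 mimic, Dgcr8 KO cells given siRNAs against Mbnl1 and Mbnl2 (siMbnl1/2), Dgcr8 KO cells labelled control, and WT cells labelled control. Mimic and siRNAs were used at 50 nM, 16 hours after plating, and the control columns carry the word mock in their names. Every sample is labelled as cell line V6.5 on a 129/C57BL/6 background, but the Dgcr8 KO column names begin with ES1 and the WT names with V65, so a difference between Dgcr8 KO and WT cannot be told apart from one between lines. The 3 groups other than WT are all labelled Dgcr8 KO, and the labels give neither the deleted part of the gene nor whether 1 clone was used. The medium held serum and LIF. Plates were coated with gelatin or carried feeders, irradiated fibroblasts, and which sample had which is not given.

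BMP ligands bind a complex of type I and type II receptor kinases. The activated type I receptor phosphorylates Smad1 and Smad5, which join Smad4, enter the nucleus and switch on targets such as the Id genes. Id proteins lack a DNA-binding region and hold E proteins, helix-loop-helix transcription factors, away from DNA. Smad6 and Smad7 are themselves induced by the pathway and dampen it. In mouse embryonic stem cells BMP4 together with LIF is known to sustain self-renewal, in part through Id proteins, and serum is a source of BMP activity.

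Dgcr8 is needed to process primary microRNA transcripts, so Dgcr8 KO cells make no canonical microRNAs, and a mimic puts back a single one. miR-294 is 1 of the miR-290 family, the main microRNA family of mouse embryonic stem cells. Its mature sequence is from chr7:3220691-3220712 on the plus strand in RefSeq (GRCm38.p6). It is shown with those family members and miR-302 members that have the same seed among the sequences used here, which need not be complete. Capitals mark the seed, bases 2 to 8, which pairs with sites in the 3′ untranslated regions (UTRs) of target messages.
miR-294-3p: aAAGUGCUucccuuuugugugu
miR-291a-3p: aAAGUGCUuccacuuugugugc
miR-295-3p: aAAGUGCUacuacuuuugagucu
miR-302b-3p: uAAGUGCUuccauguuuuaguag
miR-302d-3p: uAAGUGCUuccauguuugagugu

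The site opposite the seed reads AGCACTT, and an 8mer site has a further A after it. In the longest annotated 3′ UTR of each gene in GENCODE M21 (GRCm38), 2.93% of 20996 genes held an 8mer and 17.6% a match of 7 or 8 bases. Among the 10 genes, Smad5 was the only one with such a match, 1 of each length, in a UTR of 4899 bases. Bmpr2 had 3 matches of 6 bases in a UTR of 8529 bases, Smad5, Smad6 and Smad7 had 1 each, and 28.4% of all genes had at least 1 match of 6 or more bases. The UTRs of Bmp4, Bmpr1a, Smad1, Id1, Id2 and Id3, between 339 and 3810 bases long, held none. The Smad5 matches and those of Bmpr2, whose level moved most among the receptor genes, are printed with the matching bases in capitals. A match is a description of letters, and no binding was measured.
Smad5, 8mer, chr13:56741476-56741504, plus strand: tcagtgctcgAGCACTTAgcaggcatcga
Smad5, 7 bases, chr13:56740747-56740775, plus strand: acttccctggcAGCACTTgggtccctgtc
Bmpr2, 6 bases, chr1:59870675-59870702, plus strand: ttttaagttttGCACTTttgtttagtct
Bmpr2, 6 bases, chr1:59874351-59874378, plus strand: ggtatcacactGCACTTttactctgtta
Bmpr2, 6 bases, chr1:59877174-59877201, plus strand: aagaaaggctgGCACTTcctcagaaccc

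Depth is unknown, since FPKM does not keep read numbers, and no counting interval is given. Levels below are FPKM, a scale per transcript length, in the 2 libraries of a group or as mean ± SD (n = 2), and nothing in the labels says that replicates were separate cultures, so p-values measure the spread between these samples. Differences are between group means on the log2(FPKM + 1) scale and carry their SE. Their p-values come from limma, adjusted over all genes tested, and a gene was called at an adjusted p under 0.05. Dgcr8, the deleted gene, was at 6.81 and 7.28 FPKM with miR-294, 7.90 and 6.58 with siMbnl1/2 and 7.89 and 8.50 in Dgcr8 KO, against 22.9 and 21.9 in WT. Some Dgcr8 transcript was thus counted in every Dgcr8 KO library, at 36.6% of the WT mean in the control group. Mbnl2 was at 11.2 and 14.3 FPKM with siMbnl1/2, against 24.7 and 28.6 in Dgcr8 KO, a called fall by 1.01 ± 0.12 (adjusted p = 0.0191), whereas the fall of Mbnl1 by 0.31 ± 0.10 did not pass (adjusted p = 0.158). All 8 stem cell markers were expressed in every group, with a summed level between 5238 and 7089 FPKM per library. Most of that sum was Dppa5a, at a mean of 3121 FPKM with miR-294, 5035 with siMbnl1/2, 3978 in Dgcr8 KO and 3117 in WT. In Dgcr8 KO minus WT 4 of the 8 were called higher and 3 lower, beside 29.6% and 30.1% of all genes tested. Of 11 fibroblast markers, 10 had means under 1 FPKM in each group. The remaining marker, Thy1, averaged 3.7 FPKM with miR-294, 1.67 with siMbnl1/2, 1.59 in Dgcr8 KO and 2.33 in WT. It was called higher with miR-294 than in Dgcr8 KO (0.86 ± 0.13) and than in WT (0.51 ± 0.13). The summed level of all 11, most of it Thy1, was 4.27 to 4.64 FPKM with miR-294 and 2.05 to 2.27 with siMbnl1/2. That sum was 2.06 to 2.23 in Dgcr8 KO and 3.03 to 4.18 in WT. Postn had a mean of 0 FPKM in the 3 groups labelled Dgcr8 KO, Lum in Dgcr8 KO and WT, and Dcn in WT.

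In Dgcr8 KO cells Bmp4 fell, and Smad6, Id2, Bmpr2 and Bmpr1a rose. These 5 of the 10 genes were called, 4 higher and 1 lower, while 59.8% of all genes tested were called, so the share of the 10 is not above the background. With miR-294 in Dgcr8 KO cells, Bmp4 and Id3 rose, and Bmpr2, Bmpr1a, Smad6, Smad1, Id2 and Smad5 fell: 8 of the 10 were called, against 52.2% of all genes tested. That count fell without Dgcr8 KO replicate 2, without miR-294 replicate 1 or without miR-294 replicate 2. In each of these runs the number called over all genes tested fell too. With siMbnl1/2 none of the 10 was called by limma, beside 1.11% of all genes tested, 0.868% higher and 0.242% lower. Among the 10 only Smad5 had an unadjusted p under 0.05, and the share of all genes tested at that threshold was not counted. As deposited, 111 genes were called higher and 31 lower. With median-of-ratios scaling these numbers were 92 and 111, and quantile normalization gave 117 and 88. The 142 genes called over all genes tested also turned on single libraries: there were 15 without Dgcr8 KO replicate 2, 81 without Dgcr8 KO replicate 1, 22 and 18 without WT replicates 1 and 2, 27 without either miR-294 library, 203 without siMbnl1/2 replicate 1 and 650 without siMbnl1/2 replicate 2. With only the libraries of the 2 groups there were 4. The comparisons with Dgcr8 KO share its 2 libraries, so their values are set side by side and not as independent results. Beside these counts, the median difference over the 10 genes was 0.03 in Dgcr8 KO minus WT (0.00 over all genes tested), -0.34 in miR-294 minus Dgcr8 KO (-0.06 over all) and 0.06 in siMbnl1/2 minus Dgcr8 KO (0.04 over all).

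**Figure D1:**
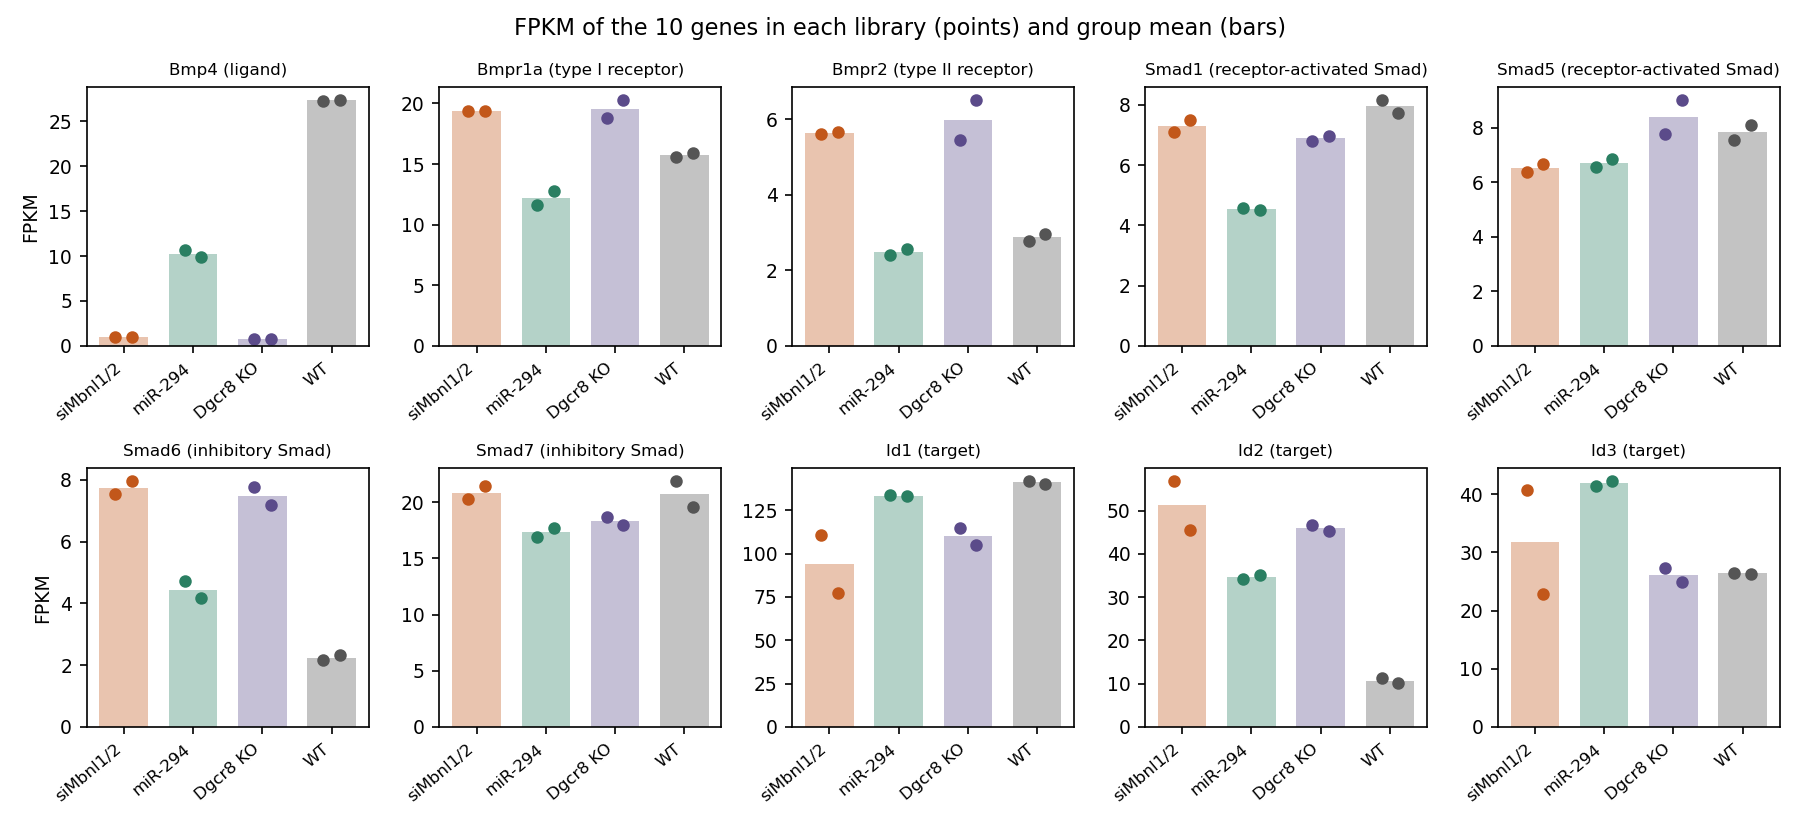
FPKM (vertical axes, each from 0) of the 10 genes, with a point for each of the 2 libraries and a bar for the group mean, in siMbnl1/2, miR-294, Dgcr8 KO and WT. Bmp4 stands at 10.3 FPKM with miR-294, between 0.774 in Dgcr8 KO and 27.3 in WT, while Smad6 and Id2 are lowest in WT.

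Bmp4, whose product is the ligand (ENSMUSG00000021835.14), lies on mm10 chromosome 14, 46383520 to 46390669. It was at 0.808 and 0.740 FPKM in Dgcr8 KO, against 27.3 and 27.4 in WT. The Dgcr8 KO mean was thus 2.83% of the WT mean, and the groups were far apart relative to the spread within them. The fall by 4.0 ± 0.09 was called (adjusted p = 8.83e-07). With miR-294 the libraries had 10.7 and 9.84 FPKM, against the Dgcr8 KO values above, a rise of 2.67 ± 0.09 (adjusted p = 9.17e-06). This level was 37.6% of the WT mean, and the remaining difference from WT of -1.33 ± 0.09 was also called (adjusted p = 1.31e-04). With siMbnl1/2 Bmp4 was at 0.987 and 0.956 FPKM, a difference from Dgcr8 KO of 0.15 ± 0.09 that did not pass (95% interval -0.06 to 0.36, adjusted p = 0.435). On the log2(FPKM + 1) scale changes from such low levels are understated, and with a pseudocount of 0.1 the difference between Dgcr8 KO and WT was -4.97. In a bulk sample, fewer cells that express a gene and less RNA per cell cannot be told apart.

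Markers of primitive endoderm, a cell type that embryonic stem cell cultures can contain, moved with Bmp4 in Dgcr8 KO. The summed level of 9 such markers was 26.6 to 28.0 FPKM per library with miR-294, 24.6 to 31.4 with siMbnl1/2, 21.9 to 25.6 in Dgcr8 KO and 191 in both WT libraries. Of the 8 tested, all fell in Dgcr8 KO, while 30.1% of all genes tested were called lower. Between miR-294 and Dgcr8 KO, 4 of the 8 rose and 1 fell, beside 22.9% of all genes tested called higher and 29.2% lower. Against WT all 8 were lower with miR-294, beside 14.7% of all genes tested. Col4a1, a basement membrane collagen and the most abundant of them, averaged 12.2 FPKM with miR-294, 17.4 with siMbnl1/2, 14.8 in Dgcr8 KO and 81.9 in WT. The part of this difference in the level of Bmp4 was not tested.

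Bmp4 was the main BMP ligand transcript in WT cells. Over 9 genes from Bmp2 to Bmp15 it made up 73.1% and 72.9% of the summed FPKM with miR-294, 23.5% and 19.3% with siMbnl1/2 and 21.1% and 21.8% in Dgcr8 KO, against 83.8% and 84.5% in WT. The sum was 14.6 and 13.5 FPKM with miR-294, 4.19 and 4.96 with siMbnl1/2 and 3.82 and 3.40 in Dgcr8 KO, against 32.5 and 32.4 in WT. Bmp6, too low on average to be tested, was at 0.653 and 0.512 FPKM with miR-294, 0.146 and 0.130 with siMbnl1/2 and 0.170 and 0.0437 in Dgcr8 KO, against 2.30 and 2.35 in WT. WT was thus highest and miR-294 next, as for Bmp4, at far lower levels. Gdf3, a related ligand that is abundant in embryonic stem cells, went the other way: 59.4 and 59.6 FPKM with miR-294 and 93.0 and 84.0 in Dgcr8 KO, against 51.5 and 54.6 in WT. It rose by 0.73 ± 0.07 in Dgcr8 KO (adjusted p = 1.35e-04).

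The type I receptor gene Bmpr1a (ENSMUSG00000021796.14, chromosome 14, 34410734 to 34503341) and the type II receptor gene Bmpr2 (ENSMUSG00000067336.6, chromosome 1, 59763400 to 59879014) were both higher in Dgcr8 KO and both lower with miR-294. Bmpr2 was at 2.40 and 2.57 FPKM with miR-294 and 5.60 and 5.67 with siMbnl1/2, with 5.45 and 6.51 in Dgcr8 KO and 2.78 and 2.97 in WT. The 2 groups with high values, siMbnl1/2 and Dgcr8 KO, did not overlap the other 2. Its difference was 0.85 ± 0.11 in Dgcr8 KO minus WT (adjusted p = 3.86e-04) and -1.0 ± 0.11 in miR-294 minus Dgcr8 KO (adjusted p = 2.93e-04), and miR-294 minus WT did not pass at -0.15 ± 0.11 (95% interval -0.40 to 0.10, adjusted p = 0.328). Bmpr1a moved less. It was at 11.6 and 12.8 FPKM with miR-294 and 18.8 and 20.3 in Dgcr8 KO, against 15.6 and 15.9 in WT. The fall with miR-294 by 0.64 ± 0.08 (adjusted p = 5.38e-04) held in every alternative run. Its rise in Dgcr8 KO of 0.30 ± 0.08 (adjusted p = 0.0142) was lost without WT replicate 1 (adjusted p = 0.0874), WT replicate 2 (0.0643) or Dgcr8 KO replicate 2 (0.0656), and over all alternatives its adjusted p ran from 0.0135 to 0.0874. Bmpr1a with miR-294 was also below WT by 0.35 ± 0.08 (adjusted p = 0.0180), a call lost without any 1 of the 4 libraries of those groups and under quantile normalization (adjusted p of 0.00779 to 0.145 over all alternatives).

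The receptor-activated Smad genes encode the proteins that carry the signal to the nucleus. Smad1 (ENSMUSG00000031681.16, chromosome 8, 79338395 to 79399518) was at 4.59 and 4.52 FPKM with miR-294 and 6.80 and 6.98 in Dgcr8 KO, against 8.17 and 7.74 in WT. With miR-294 it was lowest, below Dgcr8 KO by 0.51 ± 0.08 (adjusted p = 0.00188) and below WT by 0.69 ± 0.08 (adjusted p = 0.00140), and both calls held in every alternative run. Between Dgcr8 KO and WT the difference of -0.18 ± 0.08 did not pass (95% interval -0.38 to 0.01, adjusted p = 0.0929), although quantile normalization gave -0.35 (adjusted p = 0.00923, within a range of 0.00923 to 0.353 over all alternatives). Smad5 (ENSMUSG00000021540.16, chromosome 13, 56703010 to 56742377), which holds the 8mer and the match of 7 bases printed above, had a flatter profile: 6.58 and 6.87 FPKM with miR-294 and 6.38 and 6.66 with siMbnl1/2, with 7.78 and 9.03 in Dgcr8 KO and 7.57 and 8.11 in WT. Its fall with miR-294 by 0.28 ± 0.10 (adjusted p = 0.0411) was lost in 9 of 15 alternatives, among them the fits without Dgcr8 KO replicate 2 (-0.19, adjusted p = 0.180), without miR-294 replicate 1 (adjusted p = 0.178) or 2 (0.114) and without WT replicate 1 (0.0740) or 2 (0.0744), and its adjusted p ran from 0.0253 to 0.487. Among genes tested whose 3′ UTR held an 8mer, 231 of 409 were called lower with miR-294, with a median of -0.38, and among those with no match 1976 of 7726, with a median of -0.01. Between these lay genes whose best match was 7 bases (841 of 1973, median -0.21) or 6 bases (514 of 1398, median -0.15). Smad5 was thus less lowered than the median gene with an 8mer. Bmpr2 and Smad6, with matches of 6 bases, and Bmpr1a, Smad1 and Id2, with none, were more lowered than Smad5. These differences between genes were not tested.

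The inhibitory Smad genes differed from each other. Smad6 (ENSMUSG00000036867.7, chromosome 9, 63953076 to 64022059) was at 4.72 and 4.16 FPKM with miR-294, 7.53 and 7.97 with siMbnl1/2 and 7.78 and 7.20 in Dgcr8 KO, against 2.15 and 2.34 in WT. The groups fell into 3 levels, with siMbnl1/2 and Dgcr8 KO highest, miR-294 between and WT lowest. Smad6 rose by 1.39 ± 0.10 in Dgcr8 KO (adjusted p = 3.00e-05), fell by 0.64 ± 0.10 with miR-294 (adjusted p = 0.00143) and with miR-294 was still above WT by 0.74 ± 0.10 (adjusted p = 0.00203). Smad7 (ENSMUSG00000025880.11, chromosome 18, 75367529 to 75395935) was at 16.9 and 17.7 FPKM with miR-294, 20.3 and 21.4 with siMbnl1/2 and 18.7 and 18.0 in Dgcr8 KO, against 21.9 and 19.6 in WT. It was not called in Dgcr8 KO minus WT (-0.17 ± 0.08, 95% interval -0.35 to 0.02, adjusted p = 0.105) or in miR-294 minus Dgcr8 KO (-0.08 ± 0.08, 95% interval -0.27 to 0.10, adjusted p = 0.423). The ratio of Smad6 to Smad7, both per transcript length, was 0.279 and 0.236 with miR-294, 0.371 and 0.372 with siMbnl1/2 and 0.416 and 0.401 in Dgcr8 KO, against 0.0982 and 0.119 in WT.

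**Figure D2:**
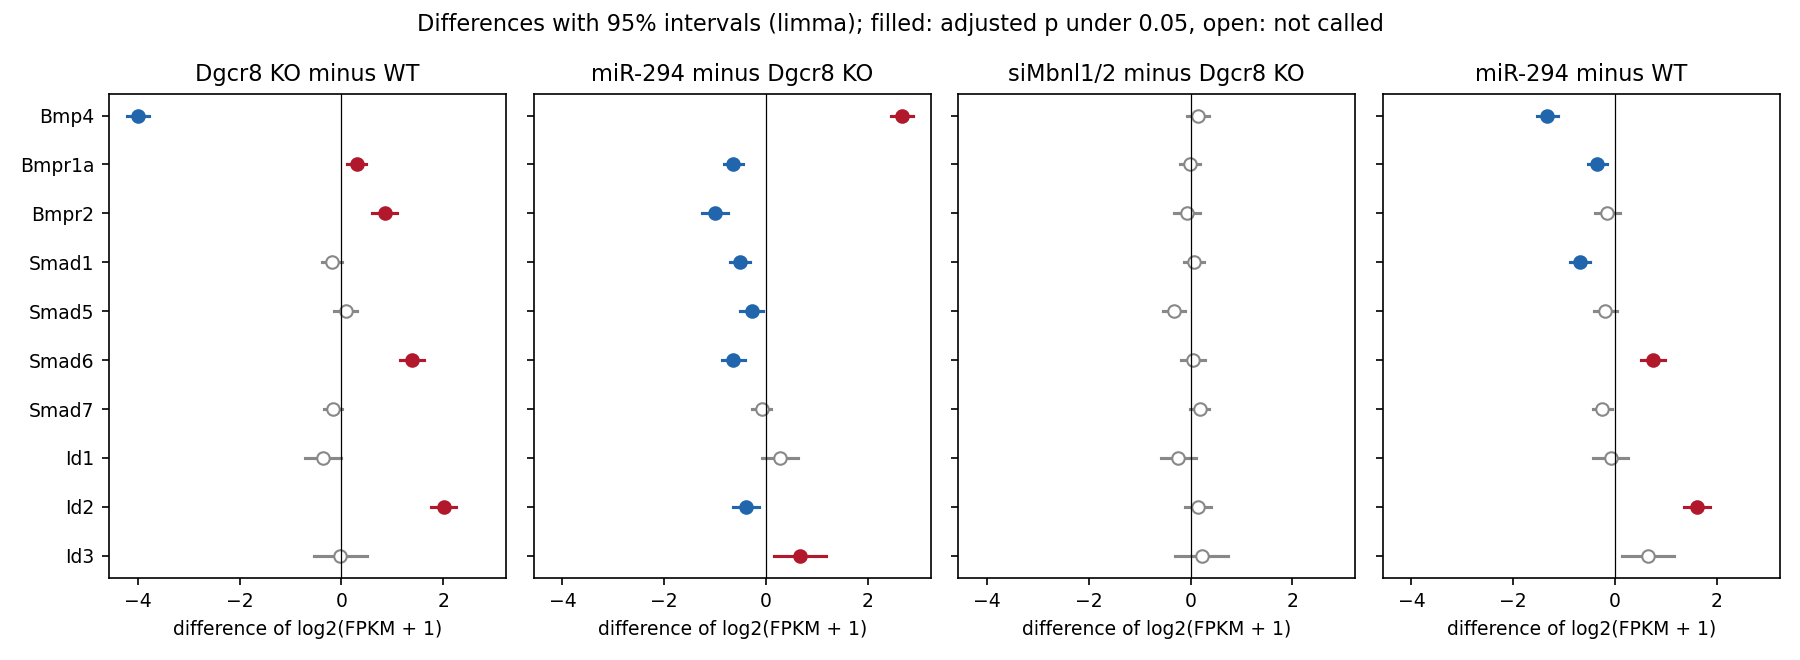
Differences of mean log2(FPKM + 1) (horizontal axes, 1 scale for all panels) with 95% intervals from limma for the 10 genes in 4 comparisons, filled where the adjusted p was under 0.05. Bmp4 lies at -4.0 in Dgcr8 KO minus WT and at 2.67 in miR-294 minus Dgcr8 KO, Id2 at 2.01 and -0.40, and in siMbnl1/2 minus Dgcr8 KO all 10 points are open.

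The Id genes, which encode the inhibitors of E proteins, did not move as a block. Id2 (ENSMUSG00000020644.8, chromosome 12, 25093801 to 25096092) was at 34.2 and 35.1 FPKM with miR-294, 56.9 and 45.6 with siMbnl1/2 and 46.6 and 45.4 in Dgcr8 KO, against 11.3 and 10.1 in WT. All 6 libraries labelled Dgcr8 KO were above both WT libraries. Id2 rose by 2.01 ± 0.11 in Dgcr8 KO (adjusted p = 1.05e-05), the mean being 4.29 times that of WT, and with miR-294 it remained above WT by 1.61 ± 0.11 (adjusted p = 1.31e-04). Its fall with miR-294 relative to Dgcr8 KO, by 0.40 ± 0.11 (adjusted p = 0.0183), was lost when any 1 of the 4 libraries of those groups was left out: adjusted p was 0.0738 and 0.0563 without Dgcr8 KO replicates 1 and 2, and 0.0906 and 0.0706 without miR-294 replicates 1 and 2, within a range of 0.00311 to 0.0906 over all alternatives.

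Id1 (ENSMUSG00000042745.9, chromosome 2, 152736251 to 152737410) was the most abundant of the 10 genes in every library. It was at 134 and 133 FPKM with miR-294, 111 and 77.2 with siMbnl1/2 and 115 and 105 in Dgcr8 KO, against 142 and 140.3 in WT. The Dgcr8 KO libraries lay below those of WT and of miR-294, but the differences of -0.36 ± 0.15 in Dgcr8 KO minus WT (95% interval -0.71 to -0.01, adjusted p = 0.0690) and 0.28 ± 0.15 in miR-294 minus Dgcr8 KO (95% interval -0.07 to 0.63, adjusted p = 0.154) did not pass. The siMbnl1/2 libraries, which are 111 and 77.2, enter the spread that the fit shares. Without siMbnl1/2 replicate 1 or 2 both differences were called, with adjusted p = 0.00179 and 0.00173 for Dgcr8 KO minus WT and 0.00674 and 0.00655 for miR-294 minus Dgcr8 KO. They were also called with only the libraries of the groups compared (adjusted p = 0.00743 and 0.0204), and over all alternatives the adjusted p ran from 0.00173 to 0.734 and from 0.00655 to 0.793. The highest p-values came with quantile normalization, which reduced the differences to -0.07 and 0.05. With siMbnl1/2 Id1 was below WT by 0.60 ± 0.15 (adjusted p = 0.00974). The call was lost with quantile normalization (-0.34, adjusted p = 0.0911, over all alternatives 1.41e-04 to 0.0911), and the difference was -0.86 without siMbnl1/2 replicate 1 and -0.34 without siMbnl1/2 replicate 2.

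Id3 (ENSMUSG00000007872.3, chromosome 4, 136143497 to 136145755) was at 41.4 and 42.3 FPKM with miR-294, 40.7 and 22.8 with siMbnl1/2 and 27.3 and 24.9 in Dgcr8 KO, against 26.5 and 26.3 in WT. The miR-294 libraries were above all those of Dgcr8 KO and WT, while 1 siMbnl1/2 library lay with miR-294 and the other below Dgcr8 KO. Id3 did not differ by the test between Dgcr8 KO and WT (-0.02 ± 0.22, 95% interval -0.53 to 0.50, adjusted p = 0.954). Its rise with miR-294 of 0.66 ± 0.22 (adjusted p = 0.0371) was lost in 9 of 15 alternatives, among them without either Dgcr8 KO library (adjusted p = 0.0901 and 0.145), either miR-294 library (0.114 and 0.128) or either WT library (0.0567 for each), and its adjusted p ran from 2.85e-04 to 0.145. In siMbnl1/2 replicate 2 Id1, Id2 and Id3 were all lower than in replicate 1, and the median SD within a group over all genes tested was 0.121 on the log2 scale with siMbnl1/2, against 0.102 in Dgcr8 KO and 0.0462 in WT.

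Added up within a library, Id1, Id2 and Id3 came to 209 and 210.1 FPKM with miR-294, 209 and 146 with siMbnl1/2 and 189 and 175 in Dgcr8 KO, against 179.9 and 177 in WT. The sums of Dgcr8 KO and WT overlapped, but Id2 made up 24.7% and 25.9% of the sum in Dgcr8 KO, against 6.30% and 5.71% in WT. Its share was 16.3% and 16.7% with miR-294 and 27.2% and 31.3% with siMbnl1/2. Id1 held 60.9% and 59.8% in Dgcr8 KO, against 79.0% and 79.4% in WT. These shares are descriptions of FPKM and carry no test.

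**Figure D3:**
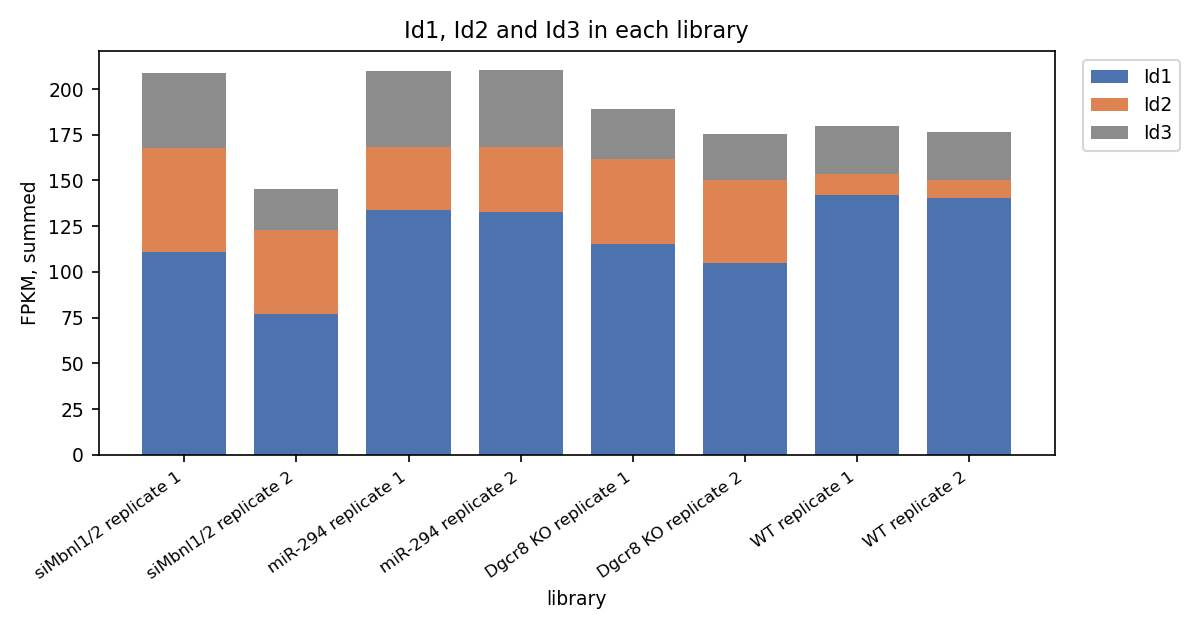
FPKM of Id1, Id2 and Id3 stacked for each of the 8 libraries (vertical axis, from 0). The Id2 segment is 45.4 to 46.6 FPKM in Dgcr8 KO and 10.1 to 11.3 in WT, and siMbnl1/2 replicate 2 has the lowest sum, 146 FPKM.

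Smad6 and Id2, both called higher in Dgcr8 KO and lower with miR-294, and Bmp4, which moved the opposite way, are shown with the 300 bases around their start sites, 250 before and 50 after, from RefSeq on GRCm38.p6. Bmpr2 and Bmpr1a were called in the same directions as Smad6 and Id2, and their windows are not printed. Capitals mark GGCGCC, a GC-rich motif that Smad1 and Smad5 complexes are known to bind in BMP target genes and which reads the same on both strands. It is held by 11.9% of 32851 promoters of this length. For 8 of the 10 genes, all but Id1 and Smad7, 10 promoters were matched, 3 of them of Smad5. The motif was in the promoters of Bmpr1a, Bmpr2 and Id2 and in some but not all of those of Smad5, a count per gene where the 11.9% is per promoter. It was in the Id2 window, 231 bases before the start, and these letters are not in the windows of Smad6 and Bmp4.
Id2, chr12:25096043-25096342, minus strand: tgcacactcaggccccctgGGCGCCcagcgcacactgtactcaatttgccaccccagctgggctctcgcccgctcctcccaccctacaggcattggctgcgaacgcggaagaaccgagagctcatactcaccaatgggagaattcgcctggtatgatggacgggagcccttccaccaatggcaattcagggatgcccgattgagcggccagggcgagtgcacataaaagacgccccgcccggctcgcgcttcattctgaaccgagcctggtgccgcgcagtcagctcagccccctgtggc
Smad6, chr9:64022010-64022309, minus strand: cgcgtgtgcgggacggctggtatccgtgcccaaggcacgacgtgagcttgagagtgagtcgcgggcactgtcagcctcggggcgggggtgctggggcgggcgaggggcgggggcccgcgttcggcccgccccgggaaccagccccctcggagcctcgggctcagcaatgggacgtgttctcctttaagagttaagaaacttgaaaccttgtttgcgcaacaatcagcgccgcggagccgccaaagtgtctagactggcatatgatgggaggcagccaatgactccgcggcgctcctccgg
Bmp4, chr14:46390620-46390919, minus strand: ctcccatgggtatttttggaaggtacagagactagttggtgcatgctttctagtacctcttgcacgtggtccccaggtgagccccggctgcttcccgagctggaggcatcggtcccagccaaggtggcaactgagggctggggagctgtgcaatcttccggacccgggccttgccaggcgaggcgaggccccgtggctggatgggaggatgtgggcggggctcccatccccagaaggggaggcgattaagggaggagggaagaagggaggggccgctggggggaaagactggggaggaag

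With the siRNAs against Mbnl1 and Mbnl2, the differences of the 10 genes from Dgcr8 KO ran from -0.32 ± 0.10 for Smad5 (95% interval -0.55 to -0.10, adjusted p = 0.143) to 0.22 ± 0.22 for Id3 (95% interval -0.30 to 0.73, adjusted p = 0.661). A single library decided the picture for Id1 and Id3: without siMbnl1/2 replicate 1 the Id1 difference was -0.50 and called (adjusted p = 0.0350, over all alternatives 0.0350 to 0.878), and without siMbnl1/2 replicate 2 the Id3 difference was 0.62 and called (adjusted p = 0.0112, over all alternatives 0.0112 to 0.869). Against WT, 6 of the 10 genes were called with siMbnl1/2, against 60.5% of all genes tested, 32.8% higher and 27.7% lower. That excess of higher over lower calls, 4194 against 3540, turned round with both scalings, to 3822 against 4125 (median-of-ratios) and 3469 against 3953 (quantile). Bmp4 (-3.84 ± 0.09) was lower, as was Id1 other than with quantile normalization, and Id2 (2.15 ± 0.11), Smad6 (1.43 ± 0.10), Bmpr2 (0.78 ± 0.11) and Bmpr1a (0.29 ± 0.08) were higher. The Bmpr1a call was lost with median-of-ratios scaling (0.21, adjusted p = 0.0598) and with quantile normalization (0.21, adjusted p = 0.0796). It was also lost without WT replicate 1 (difference 0.27) or 2 (0.30). Smad5, at -0.23 ± 0.10 (adjusted p = 0.0680), was called without Dgcr8 KO replicate 1 (adjusted p = 0.0469) or 2 (0.0477), with median-of-ratios scaling (-0.30, adjusted p = 0.0333) and with quantile normalization (-0.46, adjusted p = 0.00838), within 0.00838 to 0.284 over all alternatives. Smad1, at -0.11 ± 0.08 (adjusted p = 0.279), was called with quantile normalization alone (-0.34, adjusted p = 0.0112, over all alternatives 0.0112 to 0.629). Id3, at 0.20 ± 0.22, was called without siMbnl1/2 replicate 2 (0.61, adjusted p = 8.77e-04, over all alternatives 8.77e-04 to 0.660).

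Set directly against each other, siMbnl1/2 and miR-294 differed in 8 of the 10 genes, while 54.0% of all genes tested were called, 33.0% higher and 21% lower. In siMbnl1/2 cells Bmp4 was lower by 2.51 ± 0.09 (adjusted p = 9.81e-06), and Bmpr2 (0.93 ± 0.11), Smad6 (0.69 ± 0.10), Bmpr1a (0.63 ± 0.08), Smad1 (0.58 ± 0.08) and Id2 (0.54 ± 0.11) were higher, all of which held in every alternative run. All genes tested had a median of 0.10 in this comparison, which median-of-ratios scaling moved to -0.01 and quantile normalization to -0.02, and the calls over all genes tested, 4217 higher and 2685 lower, became 3362 and 3545 with the first scaling, and 3131 and 3382 with the second. Smad7 was higher by 0.26 ± 0.08 (adjusted p = 0.0271), a call lost in 8 of 15 alternatives. These were both scalings, the replicate number as a block (adjusted p = 0.0502), no filter on low values (0.0527) and only the libraries of the 2 groups (0.053). The others were the fits without miR-294 replicate 1 (difference 0.23), miR-294 replicate 2 (0.29) or siMbnl1/2 replicate 2 (0.22). Over all alternatives the difference ran from 0.14 to 0.29. Id1, lower by 0.52 ± 0.15 (adjusted p = 0.0211), was lost without miR-294 replicate 1 (0.0853) or 2 (0.0813), with no filter on low values (0.0579), with only the libraries of the 2 groups (0.0624) and with quantile normalization (-0.33, adjusted p = 0.110), within 3.28e-04 to 0.110 over all alternatives. Its difference was -0.78 without siMbnl1/2 replicate 1 and -0.25 without siMbnl1/2 replicate 2. Id3, lower by 0.44 ± 0.22 (adjusted p = 0.126), was called without siMbnl1/2 replicate 1 (-0.85, adjusted p = 3.43e-04, over all alternatives 3.43e-04 to 0.707).

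Cells given miR-294 still differed from WT in 5 of the 10 genes, while 26.5% of all genes tested did, 11.8% higher and 14.7% lower. These 3390 genes, 1508 higher and 1882 lower, became 1900 higher and 1632 lower with median-of-ratios scaling and 1607 and 1526 with quantile normalization. They numbered 1242 and 1352 without WT replicates 1 and 2, 1333 and 1370 without miR-294 replicates 1 and 2, 4578 without either siMbnl1/2 library and 6311 with only the libraries of the 2 groups. Id2 and Smad6 were higher, and Bmp4, Smad1 and Bmpr1a lower. Smad7, at -0.25 ± 0.08 (95% interval -0.43 to -0.06, adjusted p = 0.0551), and Id3, at 0.65 ± 0.22 (95% interval 0.13 to 1.16, adjusted p = 0.0667), did not pass. Both were called without siMbnl1/2 replicate 1 (Smad7 adjusted p = 0.0412, Id3 8.73e-04) or 2 (0.0411 and 8.34e-04), within 0.0251 to 0.334 for Smad7 and 2.17e-04 to 0.211 for Id3 over all alternatives. Bmpr2, Smad5 and Id1 were not called, with Id1 at -0.08 ± 0.15 (95% interval -0.43 to 0.26, adjusted p = 0.714).

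The other genes of the pathway, 61 on a list ordered by role of which 60 were found under their names and 34 were high enough to test, are counted here by comparison. In Dgcr8 KO 18 of the 34 rose and 4 fell, with a median of 0.44, while 59.8% of all genes tested were called, 29.6% higher and 30.1% lower. With miR-294 4 of the 34 rose and 18 fell, with a median of -0.34, while over all genes tested 22.9% were called higher and 29.2% lower. Both splits depended on the filter at a mean of 1 FPKM: without it 18 pathway genes were higher and 12 lower in Dgcr8 KO, and 7 higher and 15 lower with miR-294. That run tested pathway genes beyond the 34, so its counts are not out of 34. Of the 28009 genes tested in it, 8178 were called in Dgcr8 KO minus WT and 6572 in miR-294 minus Dgcr8 KO. With median-of-ratios scaling the miR-294 split was 6 higher and 15 lower. Among receptors and co-receptors 5 of 7 rose in Dgcr8 KO and 4 of 7 fell with miR-294. Acvr1, a second type I receptor for BMPs, was at 1.99 and 1.89 FPKM with miR-294 and 4.19 and 4.97 in Dgcr8 KO, against 2.34 and 2.06 in WT. It rose by 0.80 ± 0.13 in Dgcr8 KO (adjusted p = 0.00129). Neo1, the neogenin receptor that binds the RGM co-receptors of BMPs, was at 11.1 and 10.5 FPKM with miR-294 and 22.7 and 22.0 in Dgcr8 KO, against 11.7 and 12.2 in WT, a rise of 0.85 ± 0.08 in Dgcr8 KO (adjusted p = 8.56e-05). For both genes the miR-294 and WT values lay close together, well below those of Dgcr8 KO. The co-receptor gene Eng, endoglin, was at 17.4 and 21 FPKM with siMbnl1/2, against 6.09 and 6.55 with miR-294. Smad4, the partner of all receptor-activated Smads, averaged 21.5 FPKM with miR-294, 21.9 with siMbnl1/2, 20.7 in Dgcr8 KO and 21.7 in WT and was called in none of the comparisons of these groups.

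Secreted modulators rose in 2 of 6 cases in Dgcr8 KO and fell in 2 of 6 with miR-294, and they were the same genes, Fstl1 and Twsg1. That share is close to the background of 29.6% of all genes tested called higher in Dgcr8 KO and 29.2% called lower with miR-294. Fstl1, a secreted protein known to bind BMP4 and limit its signalling, was at 58.0 and 57.5 FPKM with miR-294, 132 and 137 with siMbnl1/2 and 129 and 124 in Dgcr8 KO, against 33.3 and 33.6 in WT. Its rise in Dgcr8 KO was 1.89 ± 0.06 (adjusted p = 1.77e-06) and its fall with miR-294 was by 1.12 ± 0.06 (adjusted p = 3.42e-05). Twsg1, a secreted protein that modulates BMP binding to chordin, was at 12.4 and 13.1 FPKM with miR-294 and 24.0 and 24.2 in Dgcr8 KO, against 12.9 and 12.2 in WT. Of the 7 intracellular inhibitors 5 rose and 1 fell in Dgcr8 KO, and 6 fell with miR-294, beside the same background. Tob1, an antiproliferative protein that represses Smad activity, was at 7.36 and 7.17 FPKM with miR-294 and 16.7 and 17.3 in Dgcr8 KO, against 11.7 and 11.4 in WT, and with miR-294 it was below WT by 0.61 ± 0.07 (adjusted p = 0.00132).

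**Figure D4:**
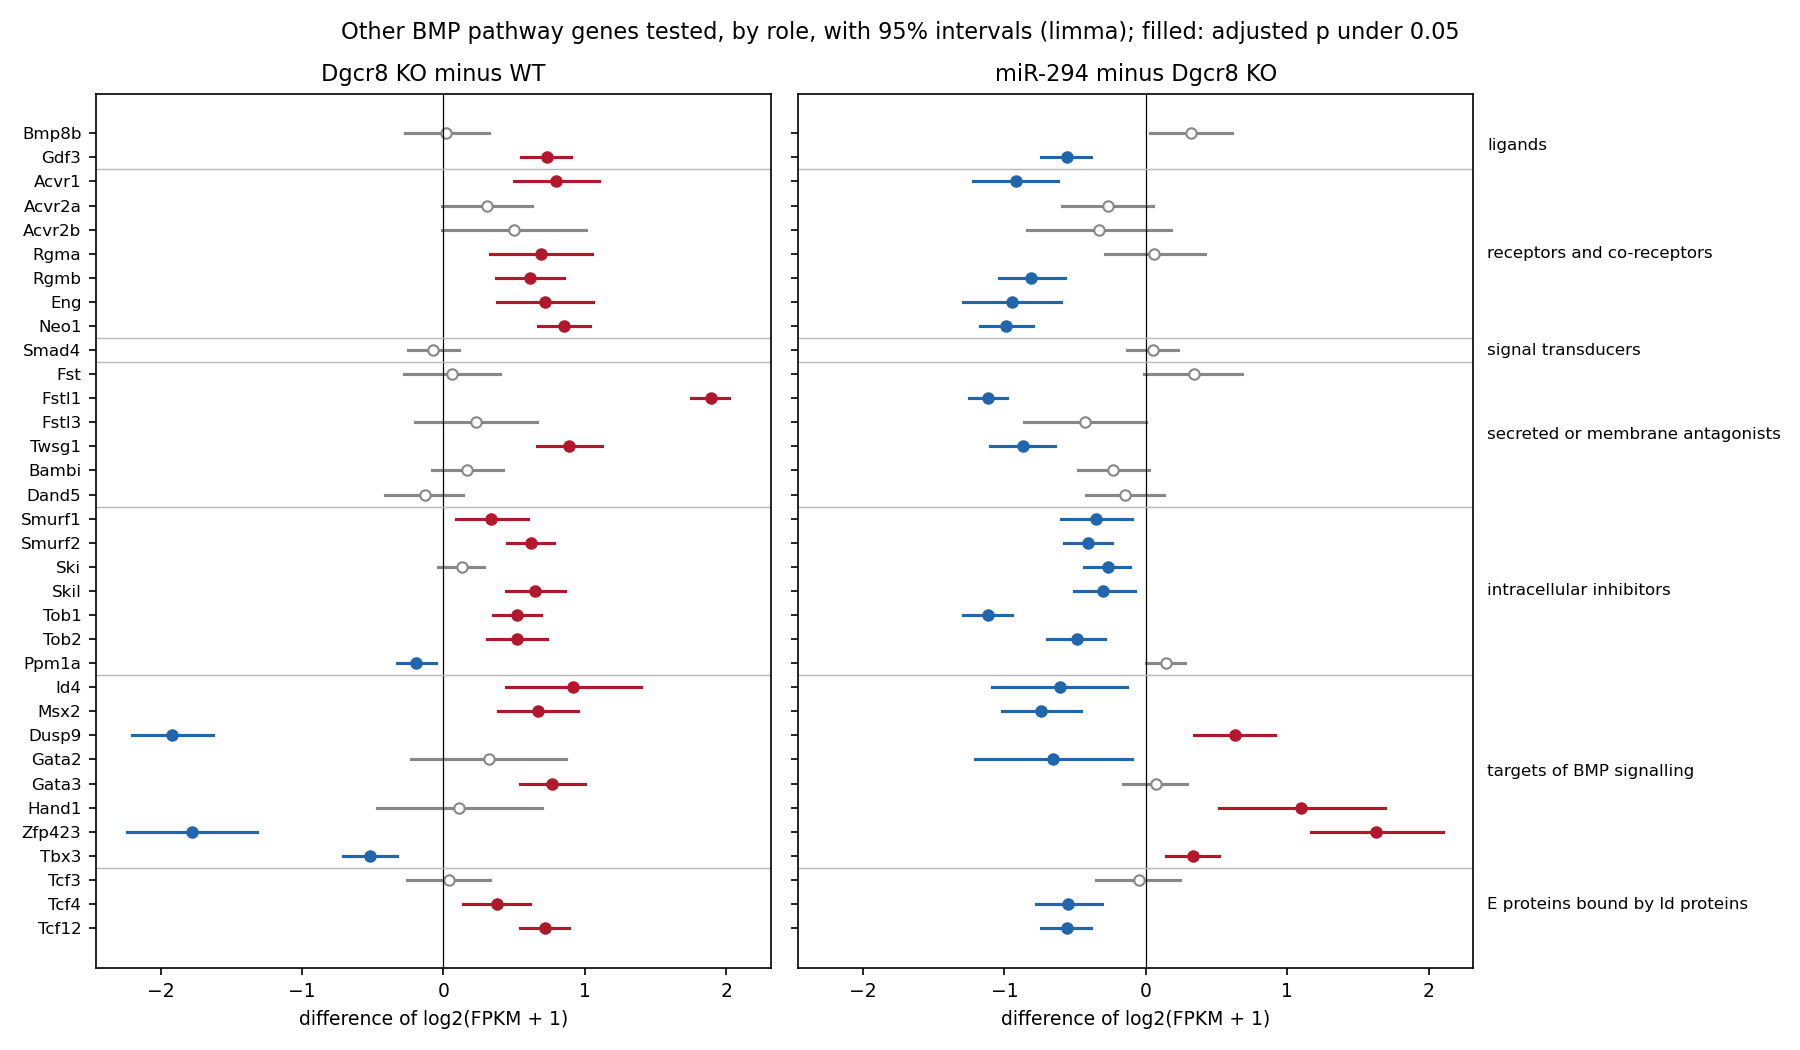
Differences of mean log2(FPKM + 1) (horizontal axes, 1 scale) with 95% intervals from limma for the 34 other pathway genes tested, grouped by role, in Dgcr8 KO minus WT and miR-294 minus Dgcr8 KO, which share the Dgcr8 KO libraries. Filled points lie above 0 for 18 of 22 genes on the left and below 0 for 18 of 22 on the right. Dusp9, Zfp423 and Tbx3 go the opposite way in both panels, Ppm1a on the left and Hand1 on the right. Genes under the filter are not drawn, and with them the called genes were 18 higher and 12 lower on the left and 7 higher and 15 lower on the right. Without the filter 28009 genes were tested in all, and 8178 of them were called on the left and 6572 on the right.

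Further targets of BMP signalling were called in both directions. In Dgcr8 KO 3 of 8 rose and 3 fell, while over all genes tested 29.6% were called higher and 30.1% lower. With miR-294 4 rose and 3 fell, beside 22.9% of all genes tested called higher and 29.2% lower. Dusp9, an ERK phosphatase induced by BMP4 in mouse embryonic stem cells, was at 56.2 and 52.8 FPKM with miR-294, 25.7 and 32.9 with siMbnl1/2 and 37.6 and 32.3 in Dgcr8 KO, against 136 and 133 in WT. It fell by 1.92 ± 0.12 in Dgcr8 KO (adjusted p = 1.86e-05) and rose by 0.63 ± 0.12 with miR-294 (adjusted p = 0.00394), staying below WT by 1.29 ± 0.12 (adjusted p = 5.02e-04). Zfp423, a zinc finger partner of Smads, was at 25.9 and 34.1 FPKM with miR-294, 3.59 and 5.59 with siMbnl1/2 and 9.99 and 7.93 in Dgcr8 KO, against 31.7 and 34.4 in WT. Its miR-294 and WT libraries overlapped and stood apart from the other 4. Id4, the remaining Id gene, was at 2.12 and 1.65 FPKM with miR-294 and 2.91 and 3.89 in Dgcr8 KO, against 1.25 and 1.38 in WT, and rose by 0.92 ± 0.21 in Dgcr8 KO (adjusted p = 0.00613). Gata3, a trophoblast transcription factor, was at 2.19 and 2.34 FPKM with miR-294 and 2.12 in both Dgcr8 KO libraries, against 0.814 and 0.839 in WT. The E proteins that Id proteins bind were not a block either: Tcf12 and Tcf4 rose in Dgcr8 KO by 0.72 ± 0.08 and 0.38 ± 0.10 and fell with miR-294 by 0.56 ± 0.08 and 0.55 ± 0.10, while Tcf3 was called in neither comparison. With siMbnl1/2 in Dgcr8 KO cells none of the 34 genes was called by limma, beside 1.11% of all genes tested. Of the 34, 6 had an unadjusted p under 0.05. The share of all genes tested at that unadjusted threshold was not counted, so the 6 have no background beside them.

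The genes whose profile over the 8 libraries was closest to that of Bmp4, of 11372 compared, were Phlda2, Spink1, Myc, Tcf15 and Eras, at a root mean square distance of 0.20 to 0.49 between log2(FPKM + 1) values centred on each gene. Phlda2, an imprinted gene known for its role in placental growth, averaged 62.4 FPKM with miR-294, 10.8 with siMbnl1/2 and 11.9 in Dgcr8 KO, against 154 in WT. Tcf15, a helix-loop-helix factor restrained by Id proteins in mouse embryonic stem cells, averaged 34.3 FPKM with miR-294, 6.05 with siMbnl1/2 and 10.1 in Dgcr8 KO, against 84.9 in WT. Myc, the growth regulator, averaged 27.4 FPKM with miR-294, 1.99 with siMbnl1/2 and 2.26 in Dgcr8 KO, against 33.1 in WT. All 3 were picked for likeness to Bmp4 over these libraries, so their place between Dgcr8 KO and WT with miR-294 follows from that. Among them Myc was nearest to its WT level. The genes closest to Id1 were Nup35, Nefh and Magoh, all at a distance of 0.09.

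**Figure D5:**
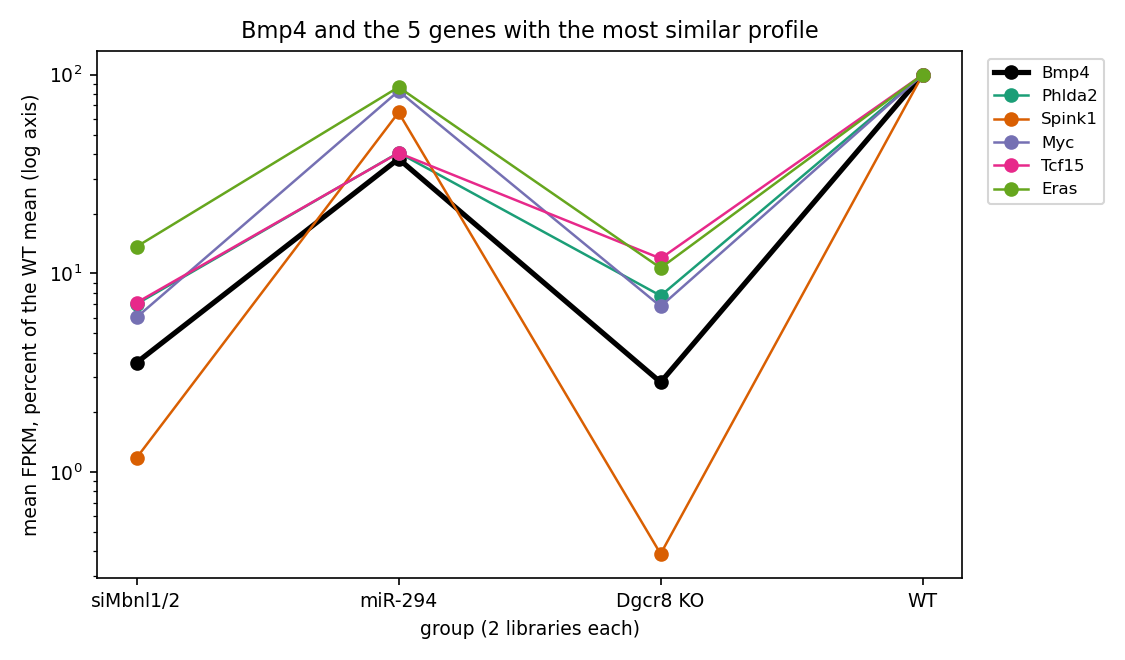
Mean FPKM as a percentage of the WT mean (vertical log axis) in siMbnl1/2, miR-294, Dgcr8 KO and WT (2 libraries each) for Bmp4 (thick line) and the 5 genes with the closest profile. Bmp4 lies at 37.6% with miR-294 and 2.83% in Dgcr8 KO. The likeness of the other 5 lines to it follows from how the genes were picked.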

How the data were processed

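The authors deposited FPKM values per gene and library. STAR 2.5.0, Cufflinks 2.2.1 and genome build mm10 are named in the submitters' processing notes, and the annotation release and strand setting are not given in the sources used here. Libraries kept strand (dUTP), per the labels' protocols. The 7 annotated genes that overlap one of the 10 had at most 0.325 FPKM in any library. Coordinates are those of the deposited table, written from base 1.

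Genes with a mean of at least 1 FPKM over 8 libraries (12786) were fitted as log2(FPKM + 1), a pseudocount of 1, with 4 group means by limma 3.58.1 (trend, robust; R 4.3.3, statmod 1.5.0, package data.table, version 1.17.8). Tests were two-sided, with Benjamini-Hochberg adjustment over all genes tested. The procedure was tested on simulated data. The members and lists were chosen with earlier results of these data known. Named were the members, the target check, the 8 most changed called pathway genes without overlap in Dgcr8 KO minus WT and 3 in each other comparison, and the closest profiles. Other genes were named from the same lists after their values were seen. Alternatives were another pseudocount, no filter, 2 scalings, other fits and each library left out.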

Additional observations from a re-analysis of the deposited data

How the results depend on the processing

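Of the 60 differences (10 genes, 6 comparisons), 32 were called, and 23 of these kept their call and direction in all 15 alternatives, among them every call of Bmp4, Bmpr2, Smad1 and Smad6. The replicate number pairs nothing by the labels. Same-numbered libraries of different groups deviated together only weakly (r of -0.05 to 0.19 across genes). With the replicate number as a block, 7147, 6082, 33, 2613, 7256 and 6306 of all genes tested were called in the 6 comparisons. Without it they were 7641, 6671, 142, 3390, 7734 and 6902. Of the 10 genes, those called with the block were 5, 8, 0, 5, 6 and 7, against 5, 8, 0, 5, 6 and 8 without it. The count in miR-294 minus Dgcr8 KO ran from 5 to 9 when a library was left out, and that in siMbnl1/2 minus Dgcr8 KO from 0 to 1. Of the other pathway genes, siMbnl1/2 minus Dgcr8 KO had 1 called with a pseudocount of 0.1 and 0 to 3 without a library, and miR-294 minus WT had 7 called, 13 with only the libraries of those groups, and 4 to 8 without a library, with 4 without WT replicate 2 or without miR-294 replicate 2. Directions that turned belonged to differences not called. Under median-of-ratios scaling they were Smad1 (0.00) and Smad6 (-0.03) in siMbnl1/2 minus Dgcr8 KO and Smad7 (-0.06) in siMbnl1/2 minus WT. Under quantile normalization they were Smad5 (-0.07) and Id3 (0.03) in Dgcr8 KO minus WT, Smad7 (0.01) in miR-294 minus Dgcr8 KO and (-0.03) in siMbnl1/2 minus WT, and Smad6 (-0.02) in siMbnl1/2 minus Dgcr8 KO. Leaving out a library gave ranges across 0 in Dgcr8 KO minus WT for Smad5 (-0.01 to 0.18) and Id3 (-0.08 to 0.05). It did so in siMbnl1/2 minus Dgcr8 KO for Bmpr1a (-0.06 to 0.04), Bmpr2 (-0.18 to 0.04), Smad6 (0.00 to 0.09), Id1 (-0.50 to 0.02), Id2 (-0.01 to 0.30) and Id3 (-0.19 to 0.62), and in siMbnl1/2 minus WT for Smad7 (-0.06 to 0.08) and Id3 (-0.20 to 0.61). A lone library was assumed to vary like the other groups. The cause of these changes was not tested, and 2 libraries per group and an unknown depth limit the precision.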

Other observations

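Trophoblast and mesoderm markers, some of which respond to BMP signalling, were low in all groups. The summed level of 5 trophoblast markers was 9.41 to 9.78 FPKM per library with miR-294, 5.89 to 9.10 with siMbnl1/2 and 5.84 to 5.97 in Dgcr8 KO, against 5.02 to 5.37 in WT. Hand1, a transcription factor of trophoblast and mesoderm, was at 4.13 and 4.76 FPKM with miR-294, 1.36 and 3.33 with siMbnl1/2 and 1.47 and 1.58 in Dgcr8 KO, against 1.27 and 1.40 in WT. It was higher with miR-294 than in WT by 1.22 ± 0.25 (adjusted p = 0.0115 by limma). Of 5 mesoderm markers Eomes was the only one with a mean of at least 1 FPKM in each group, at 3.66 FPKM with miR-294, 1.71 with siMbnl1/2, 1.58 in Dgcr8 KO and 2.60 in WT.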
